A study of Mus musculus with 8 samples.

Results

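Collagens are the trimeric proteins that build most of the extracellular matrix, and each gene of the family encodes 1 chain of such a trimer. Collagen chains were taken as the genes whose name in the authors' deposited file is Col, a number, the letter a and a number. This gave 43 of the 17171 genes in the table. Of 44 mouse chains on the class lists used here, Col10a1 was not analysed here. The 43 chains fell into 11 fibrillar, 6 basement membrane, 9 fibril-associated, 4 transmembrane, 7 beaded filament, 2 short-chain network and 2 multiplexin chains, and 2 others, Col7a1 and Col26a1.

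RNA came from the hippocampus of C57BL/6 mice at 2 months of age. The group labelled SUMO2-cKO held 4 samples of the genotype Sumo2 f/f; Emx1-Cre, and the Control group 4 samples of the genotype Sumo2 f/f, so both groups carry the floxed Sumo2 alleles and differ by the Cre transgene. Emx1-Cre is a recombinase driven from a gene of the dorsal forebrain lineage, which acts mainly in excitatory neurons and in glia of that lineage. The labels do not say that samples came from separate animals, so that p-values reflect only sample-to-sample spread, part of which may be technical. A Control group with Emx1-Cre alone is not among the labels, so effects of the Cre transgene and of Sumo2 deletion cannot be told apart.

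Fibrillar collagens such as types I, III and V form the cross-striated fibrils of connective tissue. Basement membrane collagen, type IV, forms the sheet under endothelium and epithelium, and fibril-associated collagens sit on the surface of fibrils. Transmembrane collagens are anchored in the cell membrane. In brain most fibrillar collagen is found in the meninges and around vessels, type IV collagen in the vascular basement membrane, and a few chains, among them Col19a1 and Col25a1, are made by neurons.

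All values below are from the authors' deposited table: the log2 fold change of the group labelled SUMO2-cKO over Control, with a standard error (SE) derived as that value divided by the deposited Wald statistic. DESeq2 is the one testing tool among those that the submitters' notes name. Values per sample were not used, since the names of those columns match no sample label, so levels, standard deviations and overlap between samples are not given. A gene was called where its adjusted p in the table was under 0.05. Sumo2, the targeted gene, stood at 0.42 (SE 0.252, 95% interval -0.07 to 0.92, adjusted p = 0.761) per the authors' deposited table. At the level of RNA counted over the whole gene, this value does not bear out the genotype label. A loss of Sumo2 RNA beyond 0.07 on the log2 scale lies outside the interval. The labels do not say which part of Sumo2 the floxed alleles lose. Sequence that Sumo2 shares with other genes was not counted here, so its value may hold reads from elsewhere. The group is therefore called the group labelled SUMO2-cKO, and every direction below rests on that label. Because the RNA is from whole tissue, a change in the number of cells and a change in RNA per cell cannot be told apart.

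Of the 43 collagen chains, 5 were called higher in the group labelled SUMO2-cKO, and these were Col12a1, Col22a1, Col5a1, Col4a1 and Col6a2. That is 11.6% of the chains, and the share of all genes called higher per the authors' deposited table was 0.967%. No chain was called lower, and the share of all genes called lower was 0.53%. At an unadjusted p under 0.05, 7 chains were higher and 0 lower, against 4.2% of all genes higher and 4.17% lower per the authors' deposited table. The 2 further chains were Col6a1 and Col4a2, each the partner of a called chain. With Bonferroni adjustment 2 chains were called higher, Col12a1 and Col22a1, against 0.373% of all genes. When a rise of 1.5-fold or more was also asked for, 3 were called higher, Col6a2 among them, against 0.326%. The count of 5 was the same over coding genes only, genes with an SE of at most 0.25, an adjusted p under 0.1 and rescaled statistics, where 1.02%, 1.2%, 1.26% and 1.08% of the genes tested were called higher.

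The family as a whole was spread around a small positive value. Per the authors' deposited table, 28 chains were positive and 15 negative. Their median log2 fold change was 0.06, whereas the median of all genes was -0.0002. Without the 5 called chains, 23 were positive and 15 negative, with a median of 0.03. The share of positive values differed with precision. Of the 23 chains with an SE of at most 0.25, 20 were positive (median 0.14), and of the 20 chains with a larger SE, 8 were positive (median -0.08). All 5 called chains are among those 23, which adds to their positive share. Among all 13204 genes with an SE of at most 0.25 per the authors' deposited table, 6522 were positive. These shares describe genes that were chosen by name with earlier results of the data known.

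**Figure D1:**
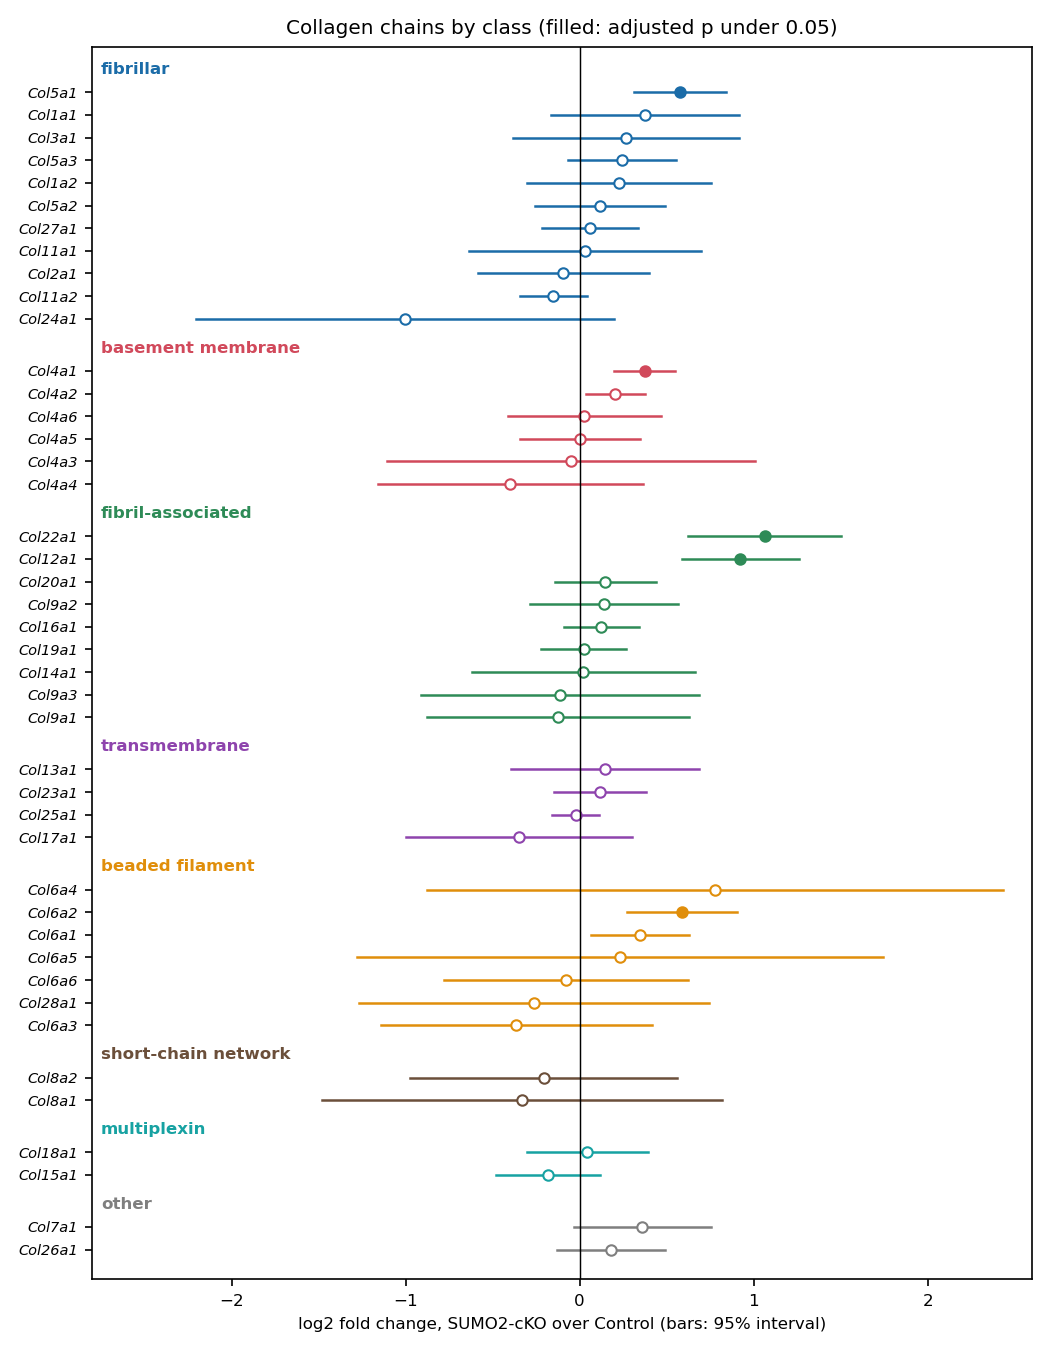
Log2 fold change of the group labelled SUMO2-cKO over Control for the 43 collagen chains, grouped by class, with bars for the 95% interval and filled points for chains at an adjusted p under 0.05. The 5 filled points lie between 0.37 and 1.06, in the fibrillar, basement membrane, fibril-associated and beaded filament classes.

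The fibril-associated class held the largest rises. Col22a1 (ENSMUSG00000079022, chromosome 15, 71795795 to 72034227, minus strand, GRCm38), a collagen of tissue junctions such as that of muscle and tendon, was 2.09-fold higher in the group labelled SUMO2-cKO per the authors' deposited table. On the log2 scale this is 1.06 (95% interval 0.63 to 1.503, SE 0.224, adjusted p = 4.6e-04). Col12a1 (ENSMUSG00000032332, chromosome 9, 79598991 to 79718831, minus strand), which decorates type I collagen fibrils, rose 1.90-fold, or 0.92 on the log2 scale (95% interval 0.59 to 1.26, SE 0.172, adjusted p = 2.7e-05) per the authors' deposited table. Col12a1 had the smallest p-value of the family and rank 50 among all genes. Both intervals lie above the values of the other 7 members of the class.

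The other 7 fibril-associated chains lay between -0.13 and 0.15 per the authors' deposited table and none was called. Col19a1, which interneurons secrete and which mice need for inhibitory synapses, stood at 0.02 (SE 0.125, 95% interval -0.22 to 0.27). Col16a1 stood at 0.13 (SE 0.109) and Col20a1 at 0.15 (SE 0.148) per the authors' deposited table. Col14a1, a fibril-associated chain built much like Col12a1, stood at 0.02, but with an SE of 0.327 its 95% interval ran from -0.62 to 0.66. The chains of type IX collagen, Col9a1, Col9a2 and Col9a3, stood at -0.13, 0.14 and -0.11 per the authors' deposited table. The median of the 9 members was 0.13.

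Col9a3 overlaps the gene Tcfl5 on the opposite strand, with 234 shared exonic bases in GENCODE M21. Tcfl5, a transcription factor gene active in germ cells, was higher by 2.74 (SE 0.407) per the authors' deposited table, and Col9a3 stood at -0.11 (SE 0.407, not called). The library kit keeps the strand, but whether counting used it is not known here.

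Among the 11 fibrillar chains, Col5a1 was the 1 called. Col5a1 (ENSMUSG00000026837, chromosome 2, 27886425 to 28039514, plus strand) encodes a chain of type V collagen, which starts and sets the width of type I fibrils. It was 1.49-fold higher, or 0.58 on the log2 scale (95% interval 0.31 to 0.84, SE 0.135, adjusted p = 0.00278) per the authors' deposited table. Its RefSeq promoter window (GRCm38.p6, chr2:27886175-27886474, plus strand, 250 bases before to 50 after the start site) is printed because it is one of the 3 called chains with a window in the table used here. It is rich in G and C, at 75% of its bases. Capitals mark short promoter motifs, searched on either strand. The GC box was searched as GGGCGG and the CCAAT box by the letters of its name. The TATA box was searched as TATAAA. The site of the AP-1 factors was searched as TGANTCA, where N is any base.
Col5a1: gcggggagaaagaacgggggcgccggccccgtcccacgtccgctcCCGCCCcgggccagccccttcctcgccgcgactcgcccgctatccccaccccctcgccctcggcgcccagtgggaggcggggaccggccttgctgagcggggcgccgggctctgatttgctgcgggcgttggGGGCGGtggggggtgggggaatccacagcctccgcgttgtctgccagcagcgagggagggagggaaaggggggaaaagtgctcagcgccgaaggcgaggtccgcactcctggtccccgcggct

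The partner chains of Col5a1 had smaller values. Col5a2 stood at 0.12 (SE 0.191) and Col5a3 at 0.24 (SE 0.159) per the authors' deposited table, and neither was called. Col5a1 exceeded Col5a2 by 0.46 (95% interval 0.0017 to 0.92, with the 2 SEs taken as independent). Col1a1 and Col1a2, the chains of type I collagen, stood at 0.38 (SE 0.275) and 0.23 (SE 0.269), and Col3a1, a chain of vessel walls and meninges, at 0.27 (SE 0.331). With such errors the 95% interval of Col1a1 ran from -0.17 to 0.91, so neither no change nor a rise as large as that of Col5a1 is outside it. All 6 chains of types I, III and V were positive per the authors' deposited table.

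The fibrillar chains better known from cartilage did not share that sign as a set. Col11a1 stood at 0.03, Col27a1 at 0.06, Col2a1 at -0.09 and Col11a2 at -0.15 per the authors' deposited table. Col11a2, with an SE of 0.0989, was the fibrillar chain with the smallest error, and its 95% interval ran from -0.34 to 0.04. Col24a1 had the lowest value of the family, -1.001, with an SE of 0.613 and a 95% interval from -2.20 to 0.20 (adjusted p = 0.789). The median of the 11 fibrillar chains was 0.12, with 8 of them positive.

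Of the 6 basement membrane chains, Col4a1 (ENSMUSG00000031502, chromosome 8, 11198423 to 11312826, minus strand) was called. It is the main chain of vascular basement membrane together with Col4a2, and damage to either gene causes disease of small brain vessels. Col4a1 was 1.30-fold higher, or 0.37 on the log2 scale (95% interval 0.20 to 0.55, SE 0.0890, adjusted p = 0.00377) per the authors' deposited table. Col4a2 stood at 0.21 (SE 0.0869, 95% interval 0.04 to 0.38, adjusted p = 0.359) and was not called. The difference of Col4a1 and Col4a2 was 0.17, with a 95% interval of -0.08 to 0.41 that includes 0.

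Col4a1 and Col4a2 lie on opposite strands with start sites 21 bases apart, and they overlap there by 22 exonic bases. Their RefSeq promoter windows, chr8:11312777-11313076 on the minus strand and chr8:11312555-11312854 on the plus strand (GRCm38.p6), share 78 bases. They are printed to show that shared stretch, which ends both windows, with motifs in capitals as above. The Col4a1 window holds 1 CCAAT box and 1 GC box, and the Col4a2 window 1 CCAAT box and 3 GC boxes.
Col4a1: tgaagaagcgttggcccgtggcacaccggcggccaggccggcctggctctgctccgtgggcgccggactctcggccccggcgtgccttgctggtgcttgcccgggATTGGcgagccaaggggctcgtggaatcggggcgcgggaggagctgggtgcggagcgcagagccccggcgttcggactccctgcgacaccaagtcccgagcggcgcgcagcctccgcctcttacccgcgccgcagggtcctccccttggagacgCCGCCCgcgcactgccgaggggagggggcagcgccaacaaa
Col4a2: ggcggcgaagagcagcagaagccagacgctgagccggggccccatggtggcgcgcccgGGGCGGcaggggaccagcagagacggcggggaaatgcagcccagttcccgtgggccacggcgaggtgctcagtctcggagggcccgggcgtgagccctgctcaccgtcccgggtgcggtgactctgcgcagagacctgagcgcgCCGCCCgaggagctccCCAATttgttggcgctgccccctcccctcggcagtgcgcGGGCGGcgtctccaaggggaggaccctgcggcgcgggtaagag

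The other type IV chains were near 0 or poorly measured. Col4a5 and Col4a6, which lie head to head on chromosome X, stood at 0.0015 (SE 0.176) and 0.03 (SE 0.224) per the authors' deposited table. Col4a3 and Col4a4, chains of the kidney filter whose start sites are 72 bases apart, stood at -0.05 (SE 0.540) and -0.40 (SE 0.388). A change of 1.06 in Col4a3 is the smallest whose 95% interval would exclude 0, so a rise as large as that of Col4a1 was not detectable for it. The median of the class was 0.01.

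Of the 7 beaded filament chains, Col6a2 (ENSMUSG00000020241, chromosome 10, 76595762 to 76623630, minus strand) was called. Type VI collagen forms fine filaments between basement membranes and fibrils. Col6a2 was 1.504-fold higher, or 0.59 on the log2 scale (95% interval 0.27 to 0.91, SE 0.162, adjusted p = 0.0264) per the authors' deposited table. Its promoter window, chr10:76623581-76623880 on the minus strand, is printed as a contrast, since it holds 6 CG dinucleotides, against 34 in that of Col5a1 and 37 in that of Col4a1.
Col6a2: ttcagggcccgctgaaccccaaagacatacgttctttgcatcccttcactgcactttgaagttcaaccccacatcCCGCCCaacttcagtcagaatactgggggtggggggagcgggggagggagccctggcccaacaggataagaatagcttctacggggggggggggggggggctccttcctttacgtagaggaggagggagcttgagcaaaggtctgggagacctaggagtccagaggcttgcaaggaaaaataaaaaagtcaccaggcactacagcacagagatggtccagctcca

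Col6a1, whose product joins that of Col6a2 in every type VI molecule, stood at 0.34 (SE 0.144, 95% interval 0.06 to 0.63, adjusted p = 0.349) per the authors' deposited table. Its gene lies 85161 bases from Col6a2 on the same strand. Col6a3, the usual partner of both, had the opposite sign, -0.36, with an SE of 0.398 and a 95% interval from -1.14 to 0.42. Col6a1 exceeded Col6a3 by 0.71, with a 95% interval of -0.12 to 1.54 that includes 0. Col6a4, Col6a5 and Col6a6, which encode chains that resemble that of Col6a3, stood at 0.78, 0.23 and -0.08, and Col28a1 at -0.26 per the authors' deposited table. Their SEs lay between 0.358 and 0.845, and the 95% interval of Col6a4 ran from -0.88 to 2.43. Of 50-base windows of their transcripts, 3.46% in Col6a5 and 3.70% in Col6a6 occur in another gene, and for Col6a5 that gene is Col6a6 alone.

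None of the 4 transmembrane chains was called, and none reached an unadjusted p under 0.05 in the authors' Wald test. Col25a1, a membrane collagen of neurons that was found in amyloid plaques, stood at -0.02 (SE 0.0700, 95% interval -0.16 to 0.11) per the authors' deposited table. It had the smallest SE of the 43 chains, and its interval lies below the estimates of all 5 called chains. Col23a1 stood at 0.12 (SE 0.134) and Col13a1, a collagen of the neuromuscular junction, at 0.15 (SE 0.274). Col17a1, a collagen of skin hemidesmosomes, stood at -0.35 (SE 0.331). The median was 0.05, with 2 of 4 positive.

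The remaining 6 chains were not called. Col8a1 and Col8a2, short chains of the network under corneal and vascular endothelium, stood at -0.33 (SE 0.585) and -0.21 (SE 0.391) per the authors' deposited table. Col15a1 and Col18a1, the multiplexins of basement membrane zones, whose ends are cut off as restin and endostatin, stood at -0.18 (SE 0.153) and 0.04 (SE 0.177). Col7a1, which forms the anchoring fibrils of skin, stood at 0.36 (SE 0.201, 95% interval -0.03 to 0.76, adjusted p = 0.693), and Col26a1 at 0.18 (SE 0.159) per the authors' deposited table.

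**Figure D2:**
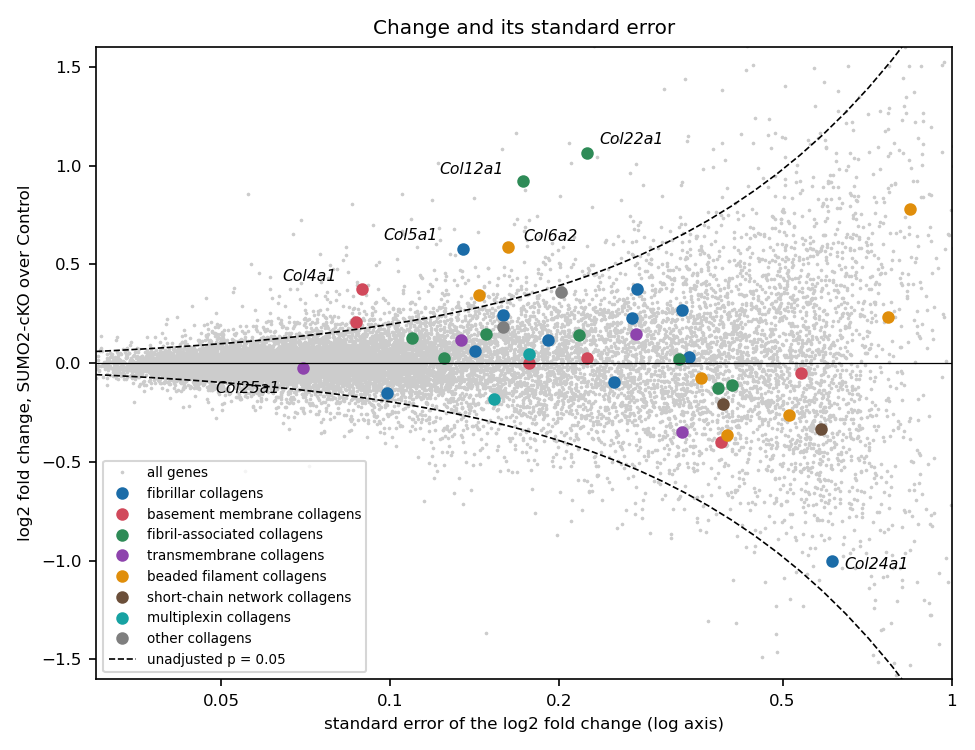
Log2 fold change of the group labelled SUMO2-cKO over Control against its SE (log axis) for the collagen chains, coloured by class, and for all other genes in grey, with dashed lines at an unadjusted p of 0.05 and axes limited to the range of the chains. The 5 called chains have SEs between 0.0890 and 0.224, while Col24a1, with the lowest value, has an SE of 0.613.

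By class, the called members were 1 of 11 fibrillar, 1 of 6 basement membrane, 2 of 9 fibril-associated, 1 of 7 beaded filament and 0 of the 10 other chains, beside 0.967% of all genes called higher. No test between classes was made, and these counts do not show that the classes differ. Shared sequence was small in the called chains: of 50-base transcript windows, 1.41% in Col5a1 and 0.178% in Col22a1 occur in other genes, and none in Col12a1, Col4a1 and Col6a2. Those of Col5a1 lie in a pair of noncoding genes on the opposite strand. The SE of a chain ranged from 0.0700 to 0.845 (median 0.224) per the authors' deposited table, against a median of 0.0940 over all genes. For 6 chains it exceeded 0.5. The log2 fold change and the exonic length of the gene had a Spearman correlation of 0.16 over the 43 chains, which are not independent replicates. The gap at the threshold was wide: after Col6a2 at an adjusted p of 0.0264, the next chain was Col6a1 at 0.349.

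A total of 12 pairs of chains that form a trimer together or lie side by side were compared. In 8 pairs both chains had the same sign per the authors' deposited table. That count was not tested, and 28 of the 43 chains were positive. Col6a1, Col9a2 and Col5a2 stand in more than 1 pair, so the pairs are not independent. The 95% interval of the difference excluded 0 in 1 pair, Col5a1 and Col5a2, with no adjustment for the 12 pairs. The covariance of 2 chains is unknown without values per sample, so these intervals assume independent errors. In the other 11 pairs the intervals included 0, and their widths leave room for large differences, as in Col8a1 and Col8a2, where the interval ran from -1.51 to 1.25.

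**Figure D3:**
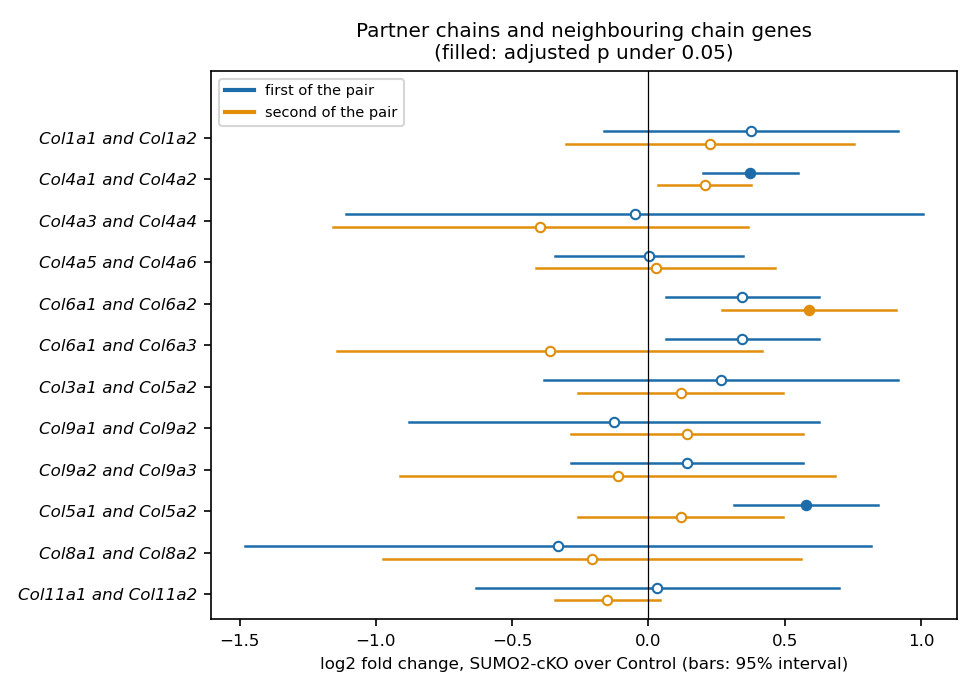
Log2 fold change of the group labelled SUMO2-cKO over Control, with the 95% interval, for 12 pairs of collagen chains; blue is the first and orange the second chain named, and filled points have an adjusted p under 0.05. In each of the pairs of Col4a1 with Col4a2 and Col6a1 with Col6a2, both intervals lie above 0.

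Other genes near the called chains were mostly not called. Within 1 Mb, 7 other measured genes lie around Col12a1, 3 around Col22a1, 37 around Col5a1, 12 around Col4a1 and 33 around Col6a2. Their medians lay between 0.0004 and 0.04 per the authors' deposited table. None of the neighbours of the first 4 chains was called in the authors' Wald test, and at an unadjusted p under 0.05 the neighbours of Col12a1 held 1 lower gene, those of Col22a1 none, and those of Col5a1 and of Col4a1 2 higher genes each, with Col4a2 among those of Col4a1. Around Col6a2, 2 neighbours were higher, Col6a1 among them, and 2 lower at that level. Over all genes, 4.2% were higher and 4.17% lower at that level, and 0.967% were called higher. Of the 33 neighbours of Col6a2, 1 was called, and it was Sumo3, the close relative of Sumo2, at 0.70 (SE 0.0934) and 982 kb away.

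The nearest measured genes on either side of the called chains were not called. Those with the smallest p-values were Rxra, the nearest gene upstream of Col5a1, at 0.21 (SE 0.0673, adjusted p = 0.104), and the collagen genes Col4a2, which overlaps the start of Col4a1, and Col6a1, a neighbour of Col6a2, at the values given above. Cox7a2, 36529 bases from Col12a1, stood at 0.06 (SE 0.0673), and Fam135b, 67956 bases from Col22a1, at 0.01 (SE 0.0763) per the authors' deposited table. On the far sides, Gm8116 stood at 1.01 (SE 1.15) beside Col12a1 and Kcnk9 at 0.14 (SE 0.134) beside Col22a1. Olfm1, downstream of Col5a1, stood at 0.07 (SE 0.0702). Beside Col4a1 and Col4a2, Rab20 stood at -0.13 (SE 0.423) and AC113484.1 at -0.34 (SE 0.388), and on the other side of Col6a2, Lss stood at -0.04 (SE 0.0992) per the authors' deposited table.

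**Figure D4:**
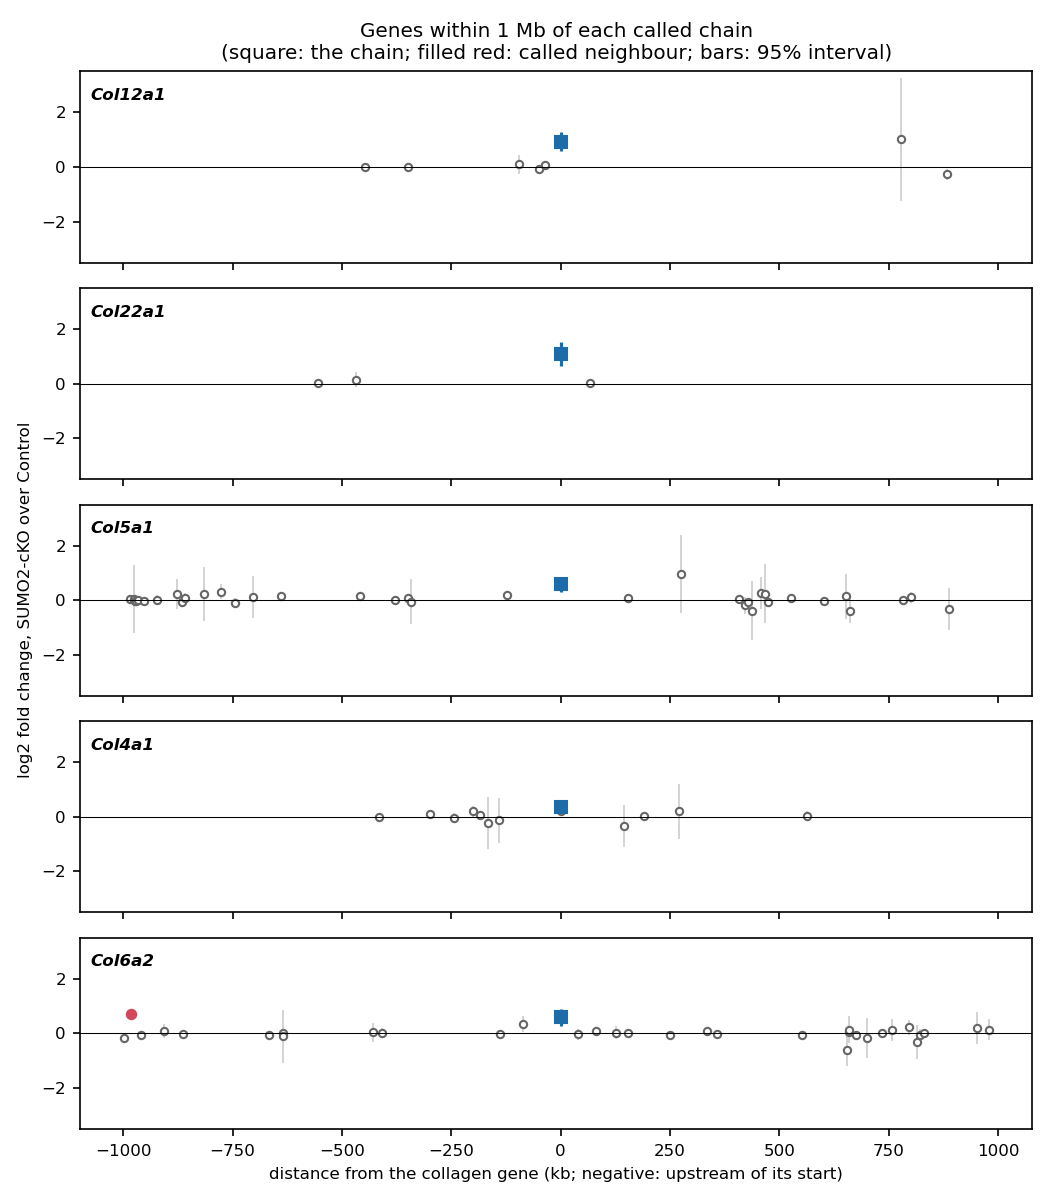
Log2 fold change of the group labelled SUMO2-cKO over Control for measured genes within 1 Mb of each called collagen chain, by distance in kb from the gene (negative is upstream), with bars for the 95% interval; the square is the chain and the red point a called neighbour. The single red point is Sumo3 at 0.70 in the panel of Col6a2.

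Promoter windows were found in the RefSeq table for 34 of the 43 chains, among them 3 of the 5 called. A GC box stood in 64.7% of these 34 windows and in 61.6% of the windows of 12529 measured genes. For the CCAAT box the shares were 35.3% and 38.1%, for the TATA box 11.8% and 7.57%, and for the AP-1 site 2.94% and 4.94%. Each of the 3 windows of called chains, Col4a1, Col5a1 and Col6a2, held a GC box. The median number of CG dinucleotides was 12 in the collagen windows and 20 in the windows of all genes. A match of letters is a description and not a binding site.

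Genes that act on collagen after translation were examined from lists of genes with a known role, chosen with earlier results of these data known. Of 14 genes of procollagen processing and cross-linking, 3 were called higher, all proteases that trim procollagen or resemble those that do, and 0 lower, against 0.967% of all genes called higher and 0.53% called lower. Tll2, a tolloid-like protease, was 2.61-fold higher at 1.39 (SE 0.308, adjusted p = 0.00127) per the authors' deposited table. Adamts14, an enzyme that removes the amino-terminal propeptide, stood at 0.64 (SE 0.185, 1.56-fold, adjusted p = 0.0392). Bmp1, the main carboxy-terminal procollagen protease, stood at 0.29 (SE 0.0845, 1.22-fold, adjusted p = 0.0497), just inside the threshold. The related proteases Tll1, Adamts2 and Adamts3 stood at -0.01, -0.24 and -0.07, and the cross-linking enzymes Lox and Loxl1 at 0.37 (SE 0.303) and 0.22 (SE 0.177) per the authors' deposited table, none of them called. The median of the list was 0.14.

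The genes listed for collagen modification and folding inside the cell, not all of them enzymes, showed no calls. Of 20 such genes none was called in the authors' Wald test. At an unadjusted p under 0.05 none was higher and 2 were lower, against 4.2% and 4.17% of all genes. The 2 lower genes were P4ha3, a prolyl hydroxylase subunit, at -0.48 (SE 0.204) and Tmem38b, an ion channel of the endoplasmic reticulum, at -0.19 (SE 0.0938). The third smallest p-value belonged to Creb3l1, a transcription factor that drives collagen genes in bone, at -0.31 (SE 0.181) per the authors' deposited table. The median of the list was 0.05.

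Collagen receptors and matrix partners were likewise not called. Of 10 receptors, Mrc2, which takes up collagen for degradation, stood at 0.47 (SE 0.184), Itga1, a collagen-binding integrin subunit, at 0.22 (SE 0.174) and Ddr1, a receptor tyrosine kinase for collagen, at -0.12 (SE 0.0579) per the authors' deposited table. At an unadjusted p under 0.05 that was 1 higher and 1 lower in the same Wald test. Over all genes, 4.2% were higher and 4.17% lower at that level, and 49.9% had positive values. Of 14 fibril-binding genes none was called, with 4 higher and 1 lower at an unadjusted p under 0.05. Among these, Prelp stood at 0.22, Lum at 0.37 and Postn at -0.59 (SE 0.221) per the authors' deposited table. Lum and Dcn, both among the genes higher at that level, are also on the list of fibroblast markers below, as is Ogn. Of 18 basement membrane partners, 17 were positive with a median of 0.12, none was called and 1 was higher at an unadjusted p under 0.05, Lama4, a laminin chain of endothelium, at 0.39 (SE 0.147). Sparcl1 stood at 0.08 (SE 0.0442) and Fbln2 at 0.27 (SE 0.161) per the authors' deposited table.

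**Figure D5:**
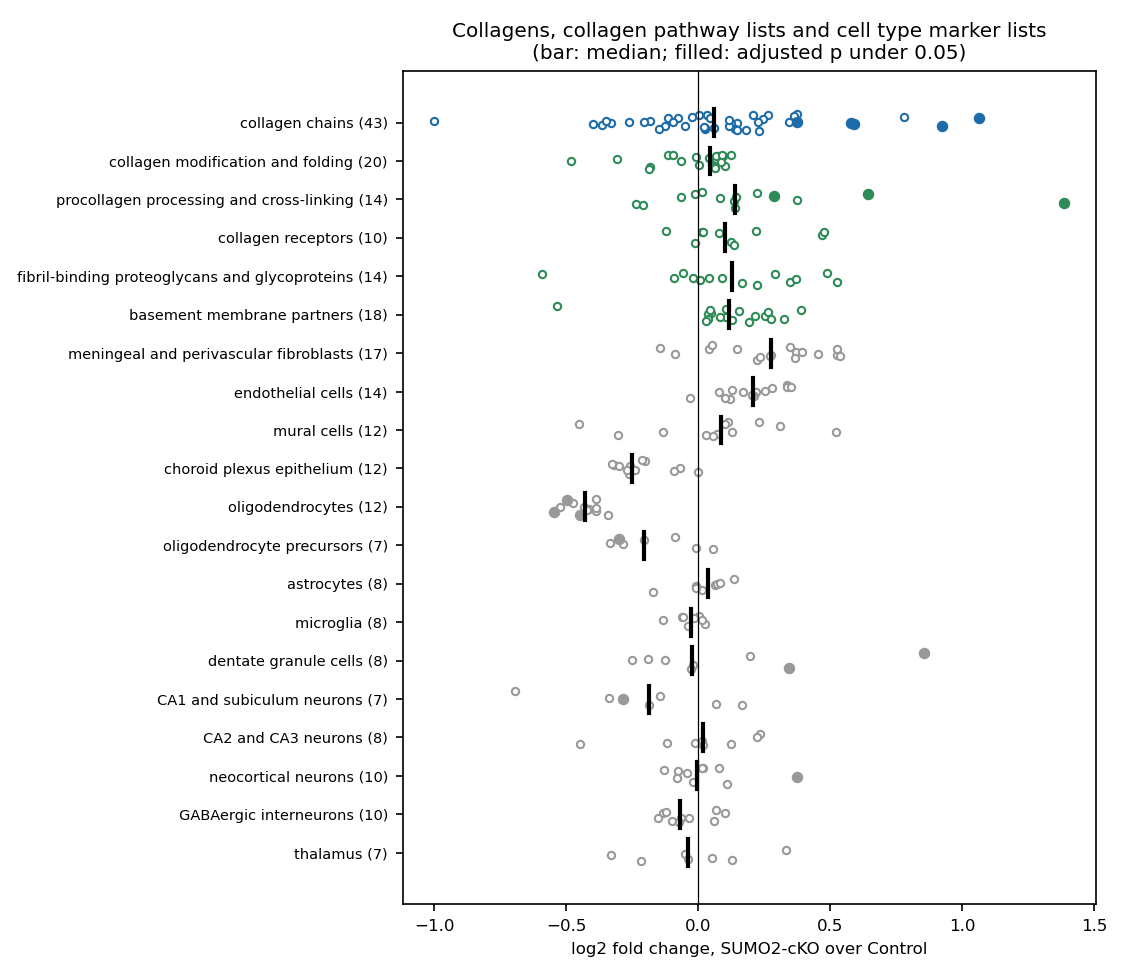
Log2 fold change of the group labelled SUMO2-cKO over Control for each measured gene of the collagen chains (blue), 5 collagen pathway lists (green) and 14 cell type marker lists (grey); bars are medians, filled points have an adjusted p under 0.05, and numbers in brackets count measured genes. The median is 0.06 for collagen chains, 0.28 for fibroblast markers, 0.21 for endothelial markers and -0.25 for choroid plexus markers.

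Markers of the cell types that hold most brain collagen were mostly positive as well, and their part in the collagen values was not tested. Of 17 markers of meningeal and perivascular fibroblasts, 15 were positive per the authors' deposited table. Their median was 0.28 and their range -0.14 to 0.54. None was called in the authors' Wald test. At an unadjusted p under 0.05, 3 were higher, Twist1 at 0.54, Lum at 0.37 and Dcn at 0.35. Over all genes, 49.9% had positive values and 4.2% were higher at that level. Of 14 endothelial markers, 13 were positive, with a median of 0.21 and a range of -0.03 to 0.35. None of these was called and 3 were higher at an unadjusted p under 0.05, Cldn5 at 0.34, Cdh5 at 0.28 and Kdr at 0.22 per the authors' deposited table. Of 12 mural cell markers, 9 were positive, with a median of 0.09 and a range of -0.45 to 0.52. None of the 12 was called and 2 were higher at an unadjusted p under 0.05, Vtn at 0.31 and Anpep at 0.52. Notch3 was next among the positive ones at 0.23, and the 3 negative markers were Cnn1 at -0.45, Acta2 at -0.30 and Rgs5 at -0.13. For comparison, 28 of the 43 collagen chains were positive, with a median of 0.06 and a range of -1.001 to 1.06.

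Markers of choroid plexus epithelium were negative with large errors. All 12 had negative values per the authors' deposited table. The median was -0.25, the SEs lay between 0.448 and 0.693, and none was called or had an unadjusted p under 0.05. Sostdc1 stood at -0.30, Folr1 at -0.32 and Ttr at -0.26. The part of this tissue in the collagen values was not tested.

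The other marker lists were read for the tissue label and for cells that make little collagen. Per the authors' deposited table all 12 oligodendrocyte markers had negative values (median -0.43), and 3 were called lower, Ermn at -0.55, Aspa at -0.50 and Mog at -0.45, against 0.53% of all genes. At an unadjusted p under 0.05, 11 of the 12 were lower, against 4.17% of all genes. Of 7 precursor markers, 6 were negative (median -0.20) and 1 was called lower, Olig1 at -0.30, against 0.53% of all genes. Olig2 stood at -0.28 and Neu4 at -0.33, while Pdgfra stood at -0.09, Vcan at -0.01 and Cspg4 at 0.06, none of them called. Medians of the lists for astrocytes, microglia, dentate granule cells, CA1 and subiculum, CA2 and CA3, neocortex, interneurons and thalamus lay between -0.19 and 0.04. Calls in these lists were, among dentate granule cell markers, Lct at 0.86 and Dsp at 0.34 higher, with 5 of the 8 markers negative. Cux2 was called higher at 0.37 among 10 neocortical markers, and Bok lower at -0.28 among 7 CA1 and subiculum markers. Per the authors' deposited table, 0.967% of all genes were called higher and 0.53% lower. Whether defining hippocampal markers are present at high level was not analysed here, since the table was used for its comparison only.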

How the data were processed

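Stranded mRNA libraries were made from 8 hippocampus samples, 4 labelled SUMO2-cKO and 4 Control, per the labels' protocols. Per the submitters' processing notes, tools used were DESeq2, HTSeq, STAR, cutadapt and Trim Galore, with no version or role listed. The genome build and annotation they used are not given in the sources at hand. Per the file headers, the deposited table gives for each of 17171 genes a log2 fold change (KO over WT), a Wald statistic, which is a score, and a p-value before and after false discovery correction. Its 8 columns of normalized values have names that match no sample label and were left unused. Depth per sample is therefore not analysed here, and the planned model of sample values gave way to a description of the authors' comparison. Each SE is the ratio of the deposited log2 value to its Wald statistic, and 95% intervals are normal. Recomputed p-values and Benjamini-Hochberg values matched the deposited ones, and the adjustment was tested on simulated data. Identifiers were matched to GENCODE M21 (GRCm38): 16955 matched and 216 did not. Sequence shared between genes was counted in 50-base windows with an exact copy elsewhere in the transcriptome. Of the chains, 32 had none and 7 had over 1%. Promoter windows are from RefSeq (GRCm38.p6), 1 per gene, the one nearest to the GENCODE start. Members, classes and lists were chosen with earlier results of these data known. All chains could be named, and of each list the called genes and the 3 smallest p-values; Sumo3, Tcfl5 and a few further list members and neighbours were named after their values were seen. Work was done in Python 3.11.15 with pandas 2.3.3, numpy 2.4.6 and scipy 1.17.1, and figures in matplotlib 3.10.9. Alternatives covered which genes enter the adjustment, the threshold and rescaled statistics.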

Additional observations from a re-analysis of the deposited data

How the results depend on the processing

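The 5 called collagen chains became 2 with Bonferroni over all genes, Col12a1 and Col22a1, and 3 with a fold of at least 1.5, as Col5a1 and Col4a1 did not reach it. Stricter thresholds lower a count by construction. With coding genes only, genes with an SE of at most 0.25 only, an adjusted p under 0.1 or rescaled statistics, 5 chains were called, each higher. Bmp1 lost its call with Bonferroni and with the fold, and Adamts14 and Tll2 with Bonferroni, while the SE limit left Tll2 out. The median log2 fold change of the chains was 0.06, with 0.14 for chains with an SE of at most 0.25 and a mean of 0.15 weighted by inverse variance. The SE limit left the short-chain network class without a member. No paired analysis was possible because no column could be tied to a replicate number. Other tools, normalizations, filters and pseudocounts, and leaving out a replicate, need values per sample and were not run. Depth enters the SE together with the spread between samples, so it is not seen on its own. At the median SE of the chains, 0.44 is the smallest log2 change whose 95% interval excludes 0. That limit holds no adjustment over all genes, so a call needed a larger change.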
